A study of Mus musculus with 6 samples.

Results

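The genes described here are 38 mouse Hox genes of the HoxA, HoxB, HoxC and HoxD clusters, taken by symbol from a fixed list. They are 38 of the 37620 genes counted in every library. Clusters A and B hold 10 listed members each, and clusters C and D hold 9 each. Hoxa3 has 2 gene IDs in the tables, and the second ID had no read in any library.

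RNA was compared between 3 kinds of mouse cell culture with 2 libraries each (n = 2), which the labels call biological replicates. The ESC libraries came from wild-type J1 embryonic stem cells, grown with LIF and serum on mitomycin-treated mouse embryonic fibroblast feeders and depleted of feeders before use. The NPC libraries came from wild-type neural progenitor cells derived in vitro from J1 ESC. The Phc1-KO libraries came from cells of genotype Phc1-/- derived from J1 ESC. For these cells the title and the design text say ESC, while the cell type entry reads NPC, so they were compared with both. The sources used here do not say which part of Phc1 was deleted or whether the line is 1 clone. All groups share the J1 background. Total RNA was depleted of ribosomal RNA, and 50-base single-end reads were sequenced. In bulk RNA, fewer cells with a transcript and less transcript per cell cannot be told apart.

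Hox genes encode homeodomain transcription factors that give positional identity along the body axis. Within a cluster the genes lie in 1 transcriptional direction, and those at the 3′ end (low paralog numbers) are switched on earlier and more anteriorly in the embryo than those at the 5′ end (high paralog numbers). In embryonic stem cells the clusters are classic targets of Polycomb repression. PRC2 deposits methylation on histone H3, and PRC1, of which Phc1 encodes a Polyhomeotic subunit, binds and compacts the marked chromatin. In the text below, paralog groups 1 to 4 are called anterior (11 members), groups 5 to 8 central (11 members) and groups 9 to 13 posterior (16 members).

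In mm9, cluster A spans 98.5 kb on the minus strand of chromosome 6 (52112350 to 52210874). Cluster B spans 173.9 kb of chromosome 11 (96055630 to 96229570), cluster C 115.7 kb of chromosome 15 (102751534 to 102867274) and cluster D 96.8 kb of chromosome 2 (74506367 to 74603200), all 3 on the plus strand. These spans run from the first to the last listed member.

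Between 15226214 and 21893821 reads per library fell in genes. Beyond counting noise, the spread between the libraries of a pair (coefficient of variation) was 1.98% in ESC, 27.6% in NPC and 18.1% in Phc1-KO. Pluripotency markers summed to 2586 and 2588 CPM (counts scaled for library depth) in ESC, 12.96 and 14.9999 CPM in NPC, and 2671 and 2999 CPM in Phc1-KO. Neural progenitor markers, of which 8 of the 9 written were in the tables, summed to 250.2 and 258.5 CPM in ESC, 4132 and 2008 CPM in NPC, and 239.1 and 206.0 CPM in Phc1-KO. By these sums the Phc1-KO libraries were near ESC and far from NPC, against their cell type entry. Pax6 of the neural list went the other way. It had 4.44 and 4.68 CPM in ESC, 21.0 and 16.9 CPM in NPC, and 21.5 and 20.8 CPM in Phc1-KO. Of the 7 neural markers tested, the 6 besides Pax6 were lower in Phc1-KO than in NPC by the edgeR test described below, against 32.7% of all genes. Phc1 itself stood at 459.7 and 460.5 CPM in ESC and at 326.3 and 267.5 CPM in the libraries labelled Phc1-KO. This was a log2 change of -0.63 (SE 0.15, adjusted p = 0.041). Counts over a whole gene do not show which exons were read, so they do not check the deletion.

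The windows before the starts of 3 members are printed because the results below turn on those genes. Hoxd8 had the highest level per length in NPC and Hoxd13 the highest in Phc1-KO, and Hoxa10 had the largest fitted difference between Phc1-KO and ESC. Each is the 250 bases before a RefSeq transcript start (sequence table of GRCm38.p6), found by exact match in mm9 and written 5′ to 3′ in the direction of the gene. Capitals mark CG dinucleotides. RefSeq gave 2 starts for Hoxa10.

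Hoxa10, annotated gene start, chr6:52190854-52191103, minus strand: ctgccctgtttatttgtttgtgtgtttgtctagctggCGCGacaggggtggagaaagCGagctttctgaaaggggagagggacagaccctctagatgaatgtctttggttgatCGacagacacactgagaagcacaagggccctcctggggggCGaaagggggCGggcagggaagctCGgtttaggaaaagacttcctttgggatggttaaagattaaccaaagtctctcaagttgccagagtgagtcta
Hoxa10, internal start, chr6:52184939-52185188, minus strand: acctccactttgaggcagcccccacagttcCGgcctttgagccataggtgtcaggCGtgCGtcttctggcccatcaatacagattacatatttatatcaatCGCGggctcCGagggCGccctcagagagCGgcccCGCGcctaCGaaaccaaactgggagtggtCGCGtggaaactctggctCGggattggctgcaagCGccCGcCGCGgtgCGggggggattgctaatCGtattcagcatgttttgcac
Hoxd13, chr2:74506032-74506281, plus strand: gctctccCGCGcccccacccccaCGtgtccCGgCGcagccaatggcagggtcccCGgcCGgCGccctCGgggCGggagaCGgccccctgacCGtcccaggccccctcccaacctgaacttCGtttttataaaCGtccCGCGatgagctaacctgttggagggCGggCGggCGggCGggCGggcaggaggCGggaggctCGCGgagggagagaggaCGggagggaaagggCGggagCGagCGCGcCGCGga
Hoxd8, chr2:74542422-74542671, plus strand: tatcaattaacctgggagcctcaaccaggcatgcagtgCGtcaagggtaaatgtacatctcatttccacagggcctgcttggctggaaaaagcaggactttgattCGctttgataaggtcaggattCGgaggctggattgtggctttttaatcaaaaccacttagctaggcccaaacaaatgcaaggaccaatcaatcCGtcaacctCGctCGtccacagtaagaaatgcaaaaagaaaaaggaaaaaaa

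The 4 windows lie in no annotated exon. The internal Hoxa10 start is 5915 bases from the annotated gene start. Of the 4 windows printed, that of Hoxd13 was the richest in CG, with 31 CG dinucleotides and 74.4% G and C. The internal Hoxa10 window held 20 CG and the one at the annotated start 7, while Hoxd8 held 6 CG at 44.4% G and C. Of the 38 members, 22 had a RefSeq window placed in this way, with 24 windows in all. The median Hox window held 12.5 CG, against 6.0 over all 32851 RefSeq windows of the same length. The ratio of observed to expected CG was 0.721 in the median Hox window and 0.374 over all windows.

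A set of 3 motifs was searched on both strands of every window. TATAAA (the TATA box) was in 4 of the 24 Hox windows (16.67%) and in 12.37% of all windows. CCAAT was in 14 Hox windows (58.33%) and in 33.85% of all. TGATTNAT, the composite site of PBX and HOX proteins, was in 2 Hox windows (8.33%) and in 2.82% of all. Hoxd13 held TATAAA 124 bases before the start on the gene's strand, with an overlapping match on the other strand, and CCAAT 212 bases before the start. Hoxd8 held CCAAT 62 bases before the start. The internal Hoxa10 window held TATAAA and CCAAT on the strand opposite to the gene, 160 and 64 bases before the start, and the window at the annotated start held none of the 3 motifs. A match describes letters only.

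Hox RNA was scarce in every library. The 38 members summed to 286 and 271 reads in ESC, 639 and 1359 in NPC, and 1985 and 1573 in Phc1-KO. Summed CPM was 17.1 ± 0.817 (SD, n = 2) in ESC, 65.1 ± 32.7 in NPC and 90.0 ± 19.7 in Phc1-KO. The NPC and Phc1-KO ranges overlapped (42.0 and 88.2 CPM, against 104.0 and 76.1 CPM), and both lay above ESC (17.6 and 16.5 CPM). Members at 1 CPM or more numbered 4 in each ESC library, 10 and 15 in NPC, and 24 and 17 in Phc1-KO. No read fell on 10 members in NPC 1, on 5 in NPC 2 and on 1 in ESC 2.

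The clusters contributed unequally, and the order differed between the groups. In ESC the 4 clusters were near each other, with mean summed levels of 5.14 ± 0.469 CPM for A, 4.54 ± 0.737 CPM for B, 3.77 ± 0.253 CPM for C and 3.62 ± 0.295 CPM for D. In NPC cluster D alone reached 44.9 ± 26.9 CPM (25.9 and 63.9 CPM), while cluster C stood at 1.05 ± 0.379 CPM, below every ESC library. Of the cluster D sum in NPC, the single gene Hoxd8 held 18.1 and 39.9 CPM. Clusters A and B stood at 8.78 ± 1.82 and 10.4 ± 4.39 CPM in NPC. In Phc1-KO all 4 clusters were above every ESC library, at 34.3 ± 8.22 CPM for A, 16.3 ± 4.68 CPM for B, 12.1 ± 5.27 CPM for C and 27.4 ± 1.53 CPM for D. Cluster D held 21.68% and 20.66% of Hox reads in ESC, 61.66% and 72.41% in NPC, and 27.36% and 34.52% in Phc1-KO.

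Position within the clusters also separated the cultures. Posterior members held 49.65% and 41.7% of Hox reads in ESC, 16.12% and 19.65% in NPC, and 51.64% and 54.04% in Phc1-KO. Anterior members summed to 3.92 ± 0.0483 CPM in ESC, 17.7 ± 8.62 CPM in NPC and 12.1 ± 3.70 CPM in Phc1-KO. Central members summed to 5.33 ± 0.468, 35.4 ± 16.6 and 30.5 ± 7.11 CPM in the same order. For these 2 position classes the NPC and Phc1-KO libraries overlapped. Hoxd8, the only central member of cluster D, held 18.1 and 39.9 CPM of the central sum in NPC, against 5.24 and 5.27 CPM in Phc1-KO. In each of clusters A, B and C the central members summed higher in both Phc1-KO libraries than in both NPC libraries. Their means were 12.7 against 4.15 CPM in A, 5.81 against 2.05 CPM in B and 6.71 against 0.197 CPM in C. Posterior members summed to 7.82 ± 1.33 CPM in ESC, 12.1 ± 7.47 CPM in NPC and 47.4 ± 8.88 CPM in Phc1-KO, where both libraries (53.7 and 41.1 CPM) lay above both NPC libraries (6.77 and 17.3 CPM).

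**Figure D1:**
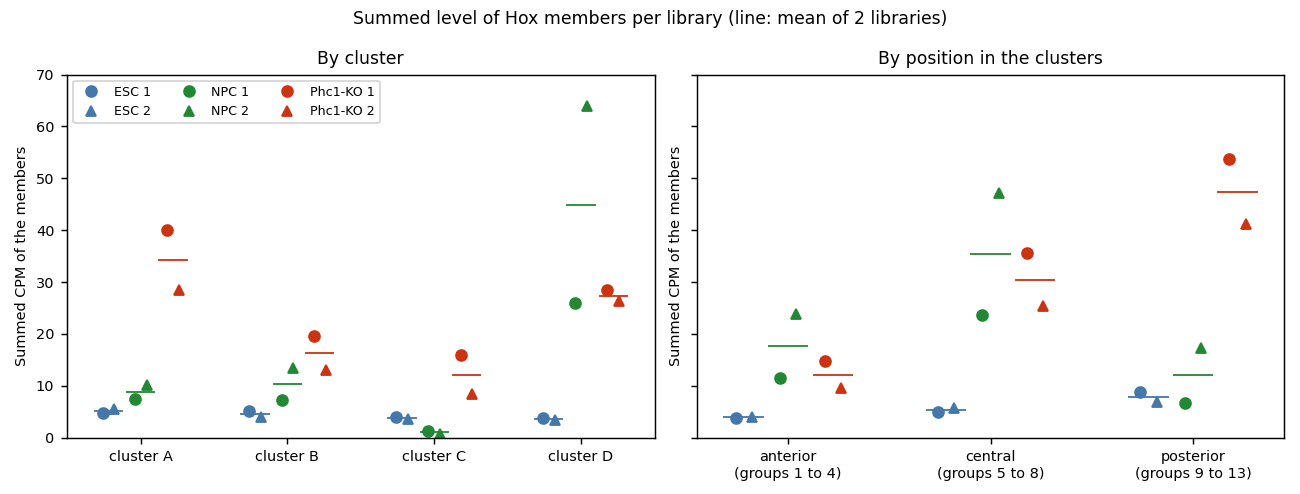
Summed CPM of the Hox members in each of the 6 libraries, by cluster (left) and by position in the clusters (right); points are libraries and lines the mean of 2 libraries. Cluster D in NPC (25.9 and 63.9 CPM) overlaps cluster D in Phc1-KO (28.4 and 26.3 CPM), and posterior members in Phc1-KO (53.7 and 41.1 CPM) lie above those of the other groups.

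Compared per exonic length (RPKM, CPM per kb), the leading gene differed by culture. In ESC it was Hoxb9 at 0.959 and 0.662 RPKM, followed by Hoxc13 at 0.576 and 0.569 RPKM; Hoxd13 (0.522 and 0.367 RPKM) and Hoxa2 (0.433 and 0.452 RPKM) came next and overlapped each other. In NPC it was Hoxd8 at 6.59 and 14.6 RPKM, above both libraries of every other member. The next in NPC were Hoxd13 (1.22 and 3.61 RPKM) and Hoxa5 (1.54 and 1.76 RPKM), which overlapped. In Phc1-KO it was Hoxd13 at 6.77 and 6.68 RPKM, followed by Hoxa5 (3.99 and 2.84 RPKM), Hoxa10 (2.87 and 1.94 RPKM) and Hoxb9 (2.89 and 1.41 RPKM). Those 3 overlapped each other and lay below Hoxd13.

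**Figure D2:**
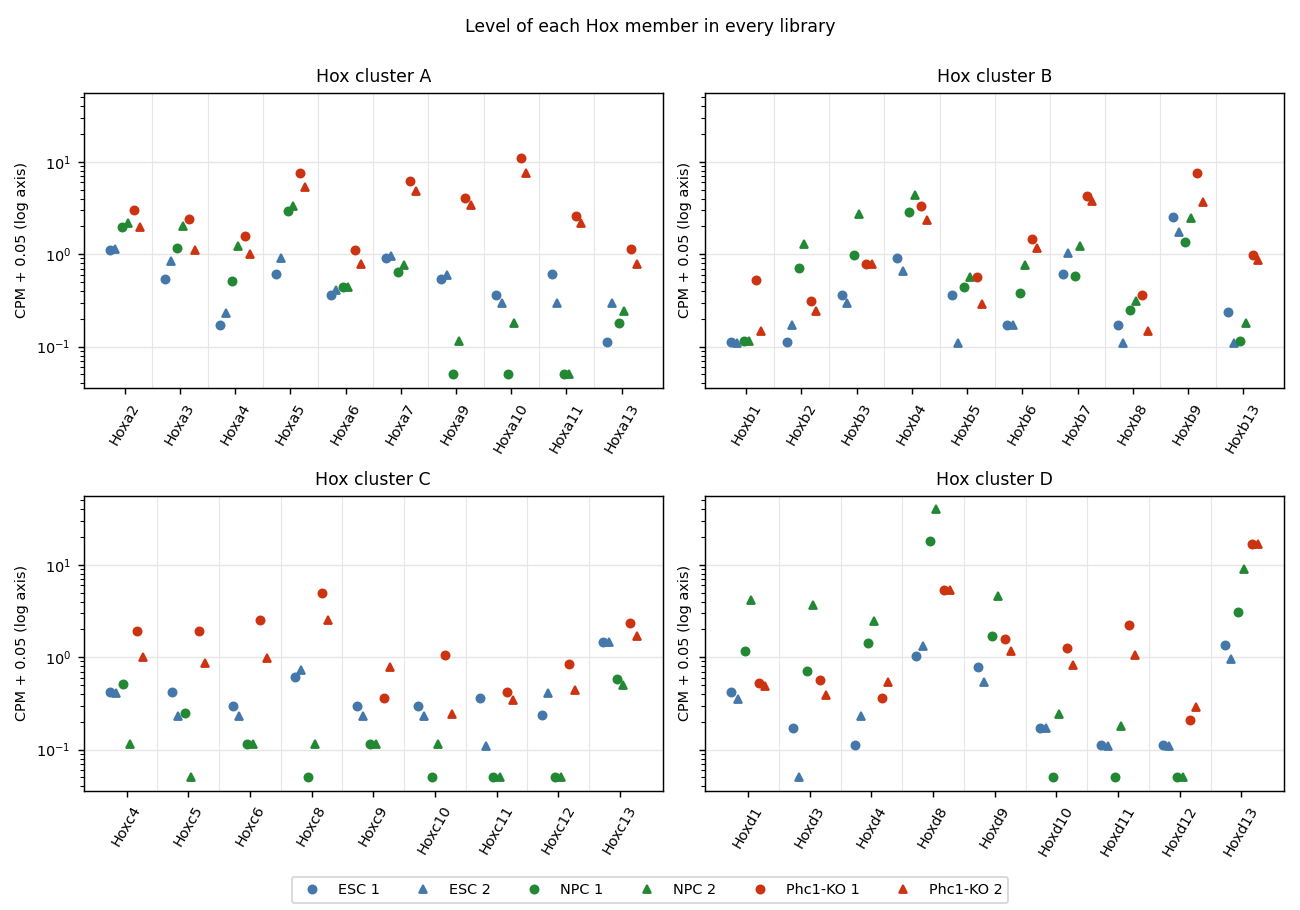
CPM of every Hox member in the 6 libraries on a log axis (0.05 CPM added), in cluster order, with 1 panel per cluster. Hoxd8 in NPC (18.1 and 39.9 CPM) and Hoxd13 in Phc1-KO (16.8 and 16.6 CPM) are the highest points.

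Within the NPC and Phc1-KO pairs most members differed in the same direction. Among members with at least 20 reads in the pair, NPC 2 was above NPC 1 for 16 of 16, with a median ratio of 2.04 (1.12 to 5.53). Phc1-KO 2 was below Phc1-KO 1 for most of 29, with a median ratio of 0.693 (0.194 to 2.31) and 2 above 1. In the ESC pair members went both ways, with 7 of 12 above 1 and a median ratio of 1.05 (0.658 to 1.75). Members are not independent replicates of a group.

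NPC were first set against the ESC they were derived from. Hoxa4, Hoxa5, 4 genes of cluster B and 6 genes of cluster D were higher in NPC, while Hoxa9, Hoxa11, Hoxc8 and Hoxc13 were lower. Of the 38 members 30 passed the filter on low counts, and 12 of these were higher and 4 lower by edgeR's quasi-likelihood test at a Benjamini-Hochberg adjusted p under 0.05, while 14 did not pass. Over all 17489 genes tested, 30.4% were higher and 30.9% lower, while 40.0% of the tested members were higher and 13.3% lower. The filter keeps members that are high in some group, so counts over tested members are descriptions. The median log2 difference was 0.181 over the 30 members, the same with Hoxa11 at its bound, and -0.0144 over all genes.

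By cluster, the members higher and lower were 2 and 2 of 10 tested in A, 4 and 0 of 7 in B, 0 and 2 of 5 in C, and 6 and 0 of 8 in D. By position they were 7 and 0 of 10 anterior, 3 and 1 of 9 central, and 2 and 3 of 11 posterior members. Without regard to the filter, both NPC libraries lay above both ESC libraries for 10 of 11 anterior members (of which Hoxb1 had 1 read in each of the 4 libraries and differed only by depth) and for 2 of 16 posterior members, Hoxd9 and Hoxd13. Both lay below for 9 of 16 posterior members, of which Hoxd12 had only 2 reads in the ESC pair and none in the NPC pair. Over the 28583 genes with a read, 32.8% lay above and 33.8% below in this sense.

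Cluster D held the largest increases. Hoxd8, a central member at mm9 chromosome 2, 74542672 to 74545990, had 0.987 and 1.28 CPM in ESC, against 18.1 and 39.9 CPM in NPC. The groups did not overlap, and the log2 change was 4.67 (SE 0.45, edgeR adjusted p = 0.00018). Hoxd4, a hindbrain-expressed anterior gene, had 0.0617 and 0.182 CPM in ESC, against 1.38 and 2.40 CPM in NPC, a log2 change of 3.87 (SE 0.60, edgeR adjusted p = 0.0014). Hoxd3 had 2 reads in the ESC pair and 66 in the NPC pair (10 and 56), a ratio of 35.2 (95% counting interval 9.37 to 297, edgeR adjusted p = 0.0095). All 3 were higher in both NPC libraries. The exons of Hoxd3 and Hoxd4 overlap on 1 strand, over 67.4% of the exonic length of Hoxd4. The counting kept ambiguous reads in a separate tally (508721 to 870094 a library), so reads on the shared bases may be counted for neither gene.

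Hoxd1, the most 3′ gene of the cluster, had 0.370 and 0.304 CPM in ESC, against 1.12 and 4.09 CPM in NPC, a log2 change of 2.93 (SE 0.69, edgeR adjusted p = 0.0087). At the other end of the cluster Hoxd13, which patterns digits and the posterior trunk, had 1.30 and 0.912 CPM in ESC, against 3.03 and 8.96 CPM in NPC, a log2 change of 2.43 (SE 0.54, edgeR adjusted p = 0.0064). Between them Hoxd9 also rose, by 2.32 on the log2 scale. Hoxd10 (-0.30, interval -2.97 to 2.37) and Hoxd11 (0.08, interval -3.40 to 3.56) did not pass, on 3 and 2 reads in NPC. Within cluster D the higher calls were thus at both ends and in the middle, with Hoxd10 and Hoxd11 between them not passing.

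In cluster B the higher members were Hoxb2, Hoxb3, Hoxb4 and Hoxb6. Hoxb6 had 4 reads in the ESC pair and 16 in the NPC pair. Its call held in 8 of 16 alternatives and was lost by DESeq2 and without ESC 1, ESC 2 or NPC 2. Hoxb4, known for its role in hematopoietic stem cells and the hindbrain, had 0.864 and 0.608 CPM in ESC, against 2.83 and 4.35 CPM in NPC, a log2 change of 2.28 (SE 0.40, edgeR adjusted p = 0.0024). Hoxb3 had 0.308 and 0.243 CPM in ESC, against 0.921 and 2.66 CPM in NPC (log2 change 2.67, SE 0.62, edgeR adjusted p = 0.0082). Hoxb2, a gene of hindbrain segments, had 3 reads in the ESC pair and 29 in the NPC pair, a ratio of 10.3 (95% counting interval 3.20 to 52.9, edgeR adjusted p = 0.0036). For Hoxb2, Hoxb3 and Hoxb4 the groups did not overlap. The antisense RNA Hoxb3os overlaps 49.4% of the exonic length of Hoxb2 and 37.9% of that of Hoxb3, and it rose as well, from 0.925 and 0.730 CPM to 2.63 and 6.69 CPM. The sources used here do not give the strand setting of the counting. It is thus not known whether reads on the shared bases were assigned to 1 of these genes or set aside as ambiguous.

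Cluster A was split by position. Hoxa4, an anterior member, had 0.123 and 0.182 CPM in ESC, against 0.460 and 1.17 CPM in NPC, a log2 change of 2.36 (SE 0.69, edgeR adjusted p = 0.021). This call held in 11 of the 16 alternatives that tested it and was lost without ESC 1, ESC 2 or NPC 2. Hoxa5, which patterns the lung and the cervical and thoracic axis, had 0.555 and 0.852 CPM in ESC, against 2.89 and 3.31 CPM in NPC, a log2 change of 2.13 (SE 0.37, edgeR adjusted p = 0.0022). Both were higher in both NPC libraries. The posterior genes Hoxa9 and Hoxa11 were lower. Hoxa9, a regulator of blood progenitors, had 17 reads in the ESC pair and 1 in the NPC pair, a ratio of 0.0628 (95% counting interval 0.0015 to 0.4005, edgeR adjusted p = 0.0057). Hoxa11, needed for forearm and kidney development, had 13 reads in ESC and 0 in NPC, at least 4.06-fold lower, against a floor of 3 reads over the group (edgeR adjusted p = 0.0090). Hoxa10 had 9 reads in ESC and 2 in NPC and did not pass (adjusted p = 0.114). Hoxa13 had 5 reads in each pair, with overlapping libraries, and did not pass either (log2 0.09). The 4 posterior A members together stood at 1.35 ± 0.0998 CPM in ESC and 0.261 ± 0.183 CPM in NPC.

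No cluster C member was higher in NPC: the edgeR calls numbered 0 of 5 tested, and 0 at an unadjusted p under 0.05. Both NPC libraries lay below both ESC libraries for 7 of the 9 members, against 33.8% of genes with a read. Of these, Hoxc6, Hoxc9, Hoxc10 and Hoxc11 had only 6 or 7 reads in the ESC pair and at most 2 in the NPC pair. Hoxc8, which patterns the thoracic axis, had 20 reads in ESC and 1 in NPC, a ratio of 0.0533 (95% counting interval 0.0013 to 0.334, edgeR adjusted p = 0.011). Hoxc13, a regulator of hair and nail keratins, had 1.42 and 1.40 CPM in ESC, against 0.526 and 0.455 CPM in NPC, a log2 change of -1.51 (SE 0.38, edgeR adjusted p = 0.012). It was lost without either ESC library and by DESeq2. Hoxc11 and Hoxc12, which were too low to test, had 6 and 9 reads in ESC and none in NPC.

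Markers of other cells differed between NPC and ESC as well. By edgeR with adjustment 14 of 18 fibroblast and feeder markers were higher in NPC and 2 lower, with sums of 953.0 to 972.4 CPM in ESC and 9830 to 14623 CPM in NPC. All 9 macrophage markers tested were lower. Over all genes tested, 30.4% were higher and 30.9% lower in NPC. NPC 2, the library with more Hox RNA, had the higher fibroblast sum and the lower neural progenitor sum of the pair. Of 4 forebrain markers tested, 3 were higher in NPC and 1 lower, and of 3 spinal cord and hindbrain markers 1 was higher and 1 lower. The part of these cells in the Hox differences was not tested.

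The libraries labelled Phc1-KO, in which Phc1 RNA was still counted, were set against ESC. Every tested member had a positive log2 difference, and the largest were at Hoxa10, Hoxd11 and Hoxd13. Of the 30 members tested, 17 were higher by edgeR's quasi-likelihood test with Benjamini-Hochberg adjustment, against a background of 4.91% of all genes tested, and 0 were lower, against 5.75%. None was lower at an unadjusted p under 0.05, nor by DESeq2 or limma-voom, and 23 were higher at an unadjusted p under 0.05. The median log2 difference was 2.44 over the members (0.42 to 5.03) and 0.000669 over all genes. Some members passed the filter only through their reads in Phc1-KO. Hoxd11, for example, had 1 and 1 reads in ESC, 0 and 2 in NPC, and 42 and 21 in Phc1-KO. The signs, counts and median over tested members are thus descriptions. Both Phc1-KO libraries lay above both ESC libraries for 34 of all 38 members (89.5%) and below for 0, against 25.1% and 27.5% of genes with a read. The exceptions were Hoxb5, Hoxb8, Hoxc10 and Hoxc11, whose libraries overlapped.

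The count of 17 depended on which libraries entered the fit. With the ESC pair counted as 1 library it was 2. It was 1 without ESC 1, 0 without ESC 2, 3 without Phc1-KO 1 and 1 without Phc1-KO 2. Calls over all genes fell as well: 858 genes were higher with all libraries, 62 with the ESC pair counted as 1, and 46, 32, 672 and 81 without the same 4 libraries in turn. DESeq2 called 10 members and 1375 genes higher, and the test against a 2-fold change 4 members and 83 genes. The log2 values of the 17 members stayed positive in these alternatives, between 1.65 and 5.28. The sources used here do not say whether the libraries of a group came from separate cultures, and p-values measure only the spread between these libraries, which may be technical.

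**Figure D3:**
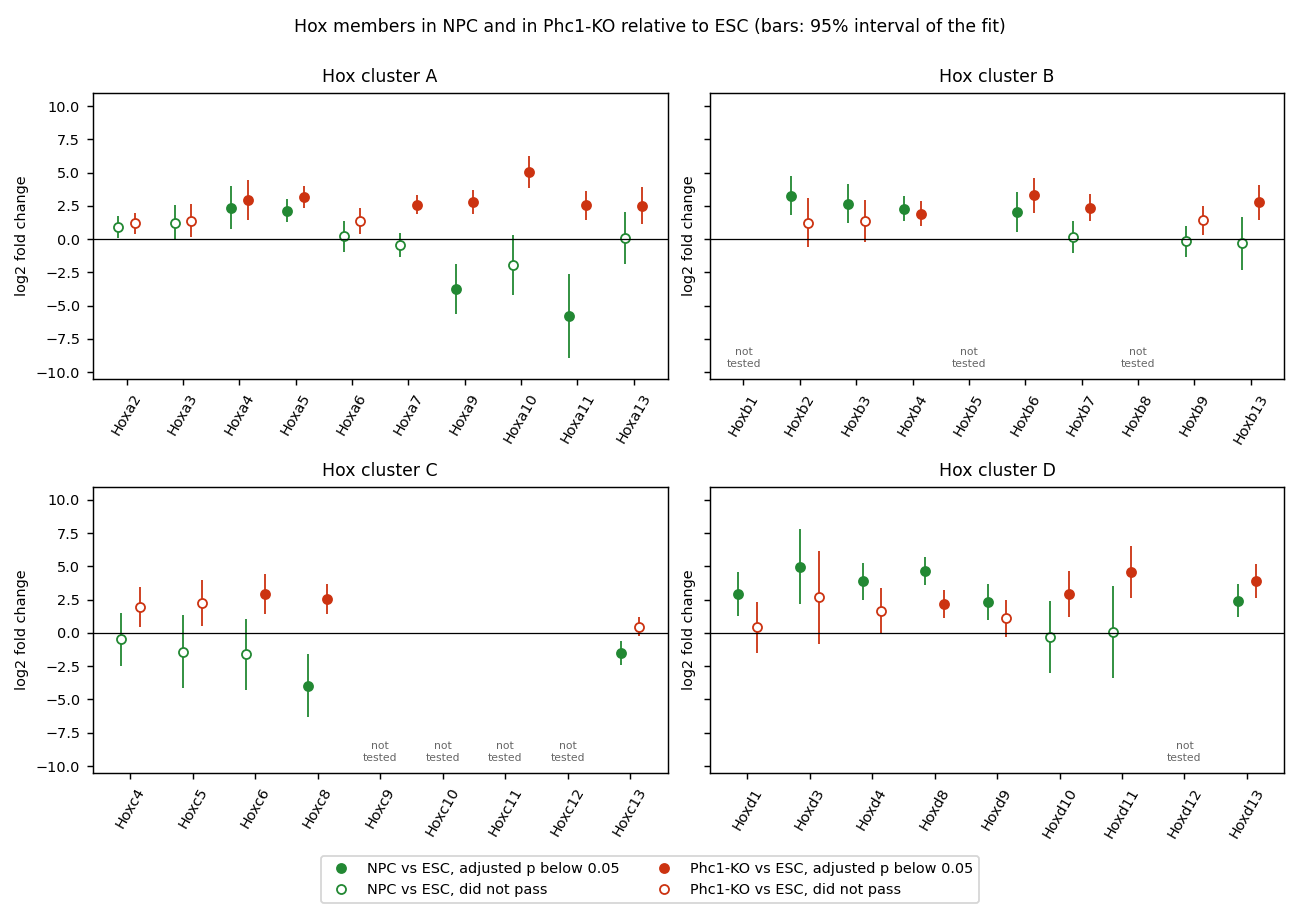
Log2 fold change of each tested Hox member in NPC and in Phc1-KO relative to the same 2 ESC libraries, in cluster order, with the 95% interval of the edgeR fit; filled points had an adjusted p below 0.05. All Phc1-KO points lie above 0 (0.42 to 5.03), and NPC points lie on both sides; Hoxa11 had no read in NPC, so its NPC point depends on the fit's prior count.

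By cluster, the members higher in Phc1-KO than in ESC were 7 of 10 tested in A, 4 of 7 in B, 2 of 5 in C and 4 of 8 in D. By position they were 2 of 10 anterior, 7 of 9 central and 8 of 11 posterior members. The median log2 difference was 1.52 for anterior, 2.57 for central and 2.77 for posterior members. The difference between position classes was not tested.

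Hoxa10, a posterior gene of uterine and limb patterning at mm9 chromosome 6, 52181196 to 52190853, had 0.308 and 0.243 CPM in ESC, against 10.998 and 7.45 CPM in Phc1-KO. The log2 change was 5.03 (SE 0.51, edgeR adjusted p = 0.0048), or 9 reads in the ESC pair against 364 in the Phc1-KO pair. The call was lost without ESC 2 and without Phc1-KO 2. Hoxa5 had 7.49 and 5.32 CPM in Phc1-KO, a log2 change of 3.17 against ESC (SE 0.36, edgeR adjusted p = 0.0060). Its call was lost without either ESC library. Hoxa4 had 1.52 and 0.968 CPM in Phc1-KO, a log2 change of 2.96 (SE 0.64, edgeR adjusted p = 0.034). Its call held in 10 of 17 alternatives and was lost by DESeq2 and without any 1 ESC or Phc1-KO library. None of the 3 overlapped between the groups.

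The posterior A genes Hoxa9, Hoxa11 and Hoxa13 also rose. Hoxa9 had 0.493 and 0.547 CPM in ESC, against 3.98 and 3.39 CPM in Phc1-KO, a log2 change of 2.80 (SE 0.39, edgeR adjusted p = 0.010). Hoxa11 had 0.555 and 0.243 CPM in ESC, against 2.57 and 2.13 CPM in Phc1-KO, a log2 change of 2.54 (SE 0.45, edgeR adjusted p = 0.026). Its antisense partner Hoxa11as, which overlaps 38.6% of its exonic length, had 3 reads in the ESC pair and 55 in the Phc1-KO pair, a ratio of 15.1 (95% counting interval 4.89 to 75.2, edgeR adjusted p = 0.013). Without the strand setting it is not known whether reads on the bases shared by the 2 genes were assigned to 1 of them or set aside as ambiguous. The calls of Hoxa9 and Hoxa11 held in 11 of 17 alternatives each, and that of Hoxa13 in 6 of 16; all 3 were lost without any 1 ESC or Phc1-KO library. Hoxa2, Hoxa3 and Hoxa6 did not pass, at log2 values of 1.17, 1.40 and 1.37.

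In cluster D, Hoxd13 had 1.30 and 0.912 CPM in ESC, against 16.8 and 16.6 CPM in Phc1-KO, a log2 change of 3.91 (SE 0.53, edgeR adjusted p = 0.0097). It was the highest Hox gene of these cells, and its 2 Phc1-KO libraries were nearly equal. Hoxd11, a gene of limb and sacral patterning, had 2 reads in ESC and 63 in Phc1-KO, a ratio of 25.9 (95% counting interval 6.87 to 218, edgeR adjusted p = 0.021). Hoxd10 had 0.123 and 0.122 CPM in ESC, against 1.20 and 0.774 CPM in Phc1-KO, a log2 change of 2.94 (SE 0.73, edgeR adjusted p = 0.048). Hoxd8 had 5.24 and 5.27 CPM in Phc1-KO, a log2 change of 2.21 (SE 0.45, edgeR adjusted p = 0.028). The 3′ genes Hoxd1 (0.42, interval -1.51 to 2.35), Hoxd3 (2.67, interval -0.82 to 6.15) and Hoxd4 (1.65, interval -0.05 to 3.36) did not pass, and neither did Hoxd9 (1.09). The calls in D thus lay at the 5′ end and at Hoxd8. They held in 12 of 17 alternatives for Hoxd13, 10 of 17 for Hoxd8 and 9 of 16 for Hoxd11, and in only 4 of 16 for Hoxd10, which was lost by DESeq2 and limma-voom. All 4 were lost without any 1 ESC or Phc1-KO library.

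In cluster B the 3 largest changes were at Hoxb6, Hoxb13 and Hoxb7. Hoxb6 had 0.123 and 0.122 CPM in ESC, against 1.41 and 1.11 CPM in Phc1-KO (log2 change 3.29, SE 0.55, edgeR adjusted p = 0.017). Hoxb13, the most 5′ gene of the cluster and known from prostate and tail development, had 0.185 and 0.0608 CPM in ESC, against 0.943 and 0.822 CPM in Phc1-KO (log2 change 2.78, SE 0.55, edgeR adjusted p = 0.027). Hoxb7 had 0.555 and 0.973 CPM in ESC, against 4.19 and 3.72 CPM in Phc1-KO (log2 change 2.36, SE 0.43, edgeR adjusted p = 0.022). None of these overlapped between the groups, although Hoxb7 shares 26.2% of its exonic length with Hoxb8. The calls held in 10 of 17 alternatives for Hoxb6, 9 of 16 for Hoxb13 and 11 of 17 for Hoxb7, and were lost without any 1 ESC or Phc1-KO library. Hoxb4 rose by 1.92, and Hoxb9, the highest gene of ESC, stood at 7.44 and 3.63 CPM against 2.47 and 1.70 CPM without passing (log2 1.40, adjusted p = 0.096).

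In cluster C, Hoxc8 had 0.555 and 0.669 CPM in ESC, against 4.87 and 2.47 CPM in Phc1-KO, a log2 change of 2.57 (SE 0.49, edgeR adjusted p = 0.024). Hoxc6, also a thoracic gene, had 0.247 and 0.182 CPM in ESC, against 2.46 and 0.919 CPM in Phc1-KO, a log2 change of 2.93 (SE 0.63, edgeR adjusted p = 0.033). Neither overlapped between the groups. The call held in 11 of 17 alternatives for Hoxc8 and 8 of 16 for Hoxc6, and both were lost without any 1 ESC or Phc1-KO library. Hoxc4, Hoxc5 and Hoxc13 did not pass, at 1.93, 2.26 and 0.48, and the 4 members from Hoxc9 to Hoxc12 were too low to test, with 13 to 23 reads in the Phc1-KO pair and 6 to 9 in the ESC pair.

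Markers of other cells moved with this comparison. Of 18 fibroblast and feeder markers, 9 were higher in Phc1-KO than in ESC and 0 lower by edgeR with Benjamini-Hochberg adjustment, against 4.91% and 5.75% of all genes. These markers are the fibroblast list. They summed to 1919 to 2078 CPM in Phc1-KO, and no marker was at 0 in any group. The collagen genes Col1a1 (log2 0.13) and Col1a2 (0.62) did not pass between Phc1-KO and ESC, while Dcn (3.68) and Postn (5.26) rose. Of 11 macrophage markers, 9 could be tested and 8 were lower in Phc1-KO than in ESC, with sums of 139.9 to 140.4 CPM in ESC, 18.4 to 24.4 CPM in Phc1-KO and 6.44 to 8.38 CPM in NPC. Adgre1, C1qa, C1qb and Tyrobp were at 0 in NPC. Primitive streak and posterior mesoderm markers, cells that express posterior Hox genes in the embryo, were lower for 5 of 8 and higher for 0, with sums of 92.5 to 94.2 CPM in ESC and 17.9 to 19.8 CPM in Phc1-KO. The part of these cells in the Hox differences was not tested.

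Phc1-KO was set against NPC because of the cell type entry. Most tested posterior and central genes were higher in Phc1-KO, while Hoxb2, Hoxd1, Hoxd3, Hoxd4 and Hoxd8 were lower. By edgeR's quasi-likelihood test with Benjamini-Hochberg adjustment, 19 of 30 members were higher and 5 lower, against 32.3% and 32.7% of all genes tested. The members' median log2 difference was 1.52, the same with Hoxa11 at its bound, and that of all genes was -0.00406. Some members passed the filter only through their reads in Phc1-KO, so counts over tested members are descriptions here too. By position, the members higher and lower were 1 and 4 of 10 anterior, 8 and 1 of 9 central, and 10 and 0 of 11 posterior members. Among the 8 central calls, that of Hoxa6 held in 2 of 16 alternatives and that of Hoxb6 in 6 of 17. Both Phc1-KO libraries lay above both NPC libraries for 15 of the 16 posterior members and below for 1, Hoxd9, against 33.2% and 31.9% of genes with a read.

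**Figure D4:**
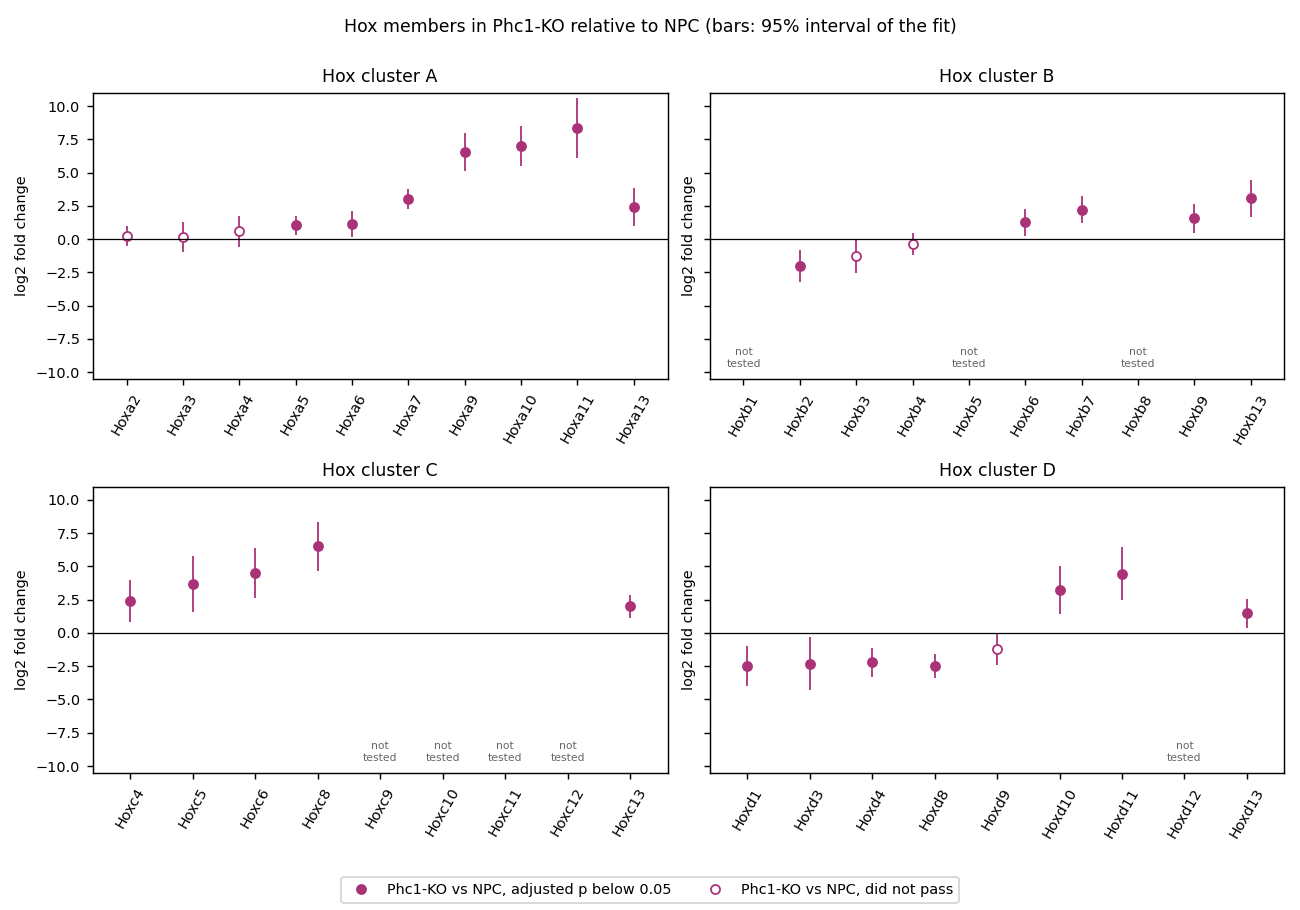
Log2 fold change of each tested Hox member in Phc1-KO relative to NPC, in cluster order, with the 95% interval of the edgeR fit; filled points had an adjusted p below 0.05. In cluster D, Hoxd1, Hoxd3, Hoxd4 and Hoxd8 lie below 0 and Hoxd10, Hoxd11 and Hoxd13 above it; Hoxa11 had no read in NPC, so its point depends on the fit's prior count.

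In cluster A 7 of 10 members were higher and 0 lower, against 32.3% and 32.7% of all genes tested, and none was lower at an unadjusted p under 0.05. Of the 7, Hoxa6 (log2 1.16) held its call in only 2 of 16 alternatives. Hoxa10 had 2 reads in the NPC pair and 364 in the Phc1-KO pair, a ratio of 140.1 (95% counting interval 38.5 to 1161, edgeR adjusted p = 0.00013). Hoxa9 had 1 and 146 reads, a ratio of 112.4 (95% counting interval 19.9 to 4468, edgeR adjusted p = 0.00014). Hoxa11 had 0 and 93 reads and was at least 23.9-fold higher (edgeR adjusted p = 0.00052). These 3 neighbouring posterior genes thus ranged from none to 2 reads in the NPC pair and from 93 to 364 in the Phc1-KO pair. Hoxa2, Hoxa3 and Hoxa4 overlapped between the groups and did not pass (0.26, 0.15 and 0.60).

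In cluster C all 5 tested members were higher, and all 9 members lay above NPC in both libraries. Hoxc8 had 1 read in the NPC pair and 144 in the Phc1-KO pair, a ratio of 110.8 (95% counting interval 19.6 to 4408, edgeR adjusted p = 0.00040). Hoxc6 had 2 and 66 reads, a ratio of 25.4 (95% counting interval 6.76 to 214, edgeR adjusted p = 0.0021). Hoxc5 had 3 and 53 reads, a ratio of 13.6 (95% counting interval 4.41 to 68.0, edgeR adjusted p = 0.0090). The untested Hoxc11 and Hoxc12, with no read in NPC, were at least 3.34-fold and at least 5.90-fold higher. Cluster C as a whole stood at 1.32 and 0.779 CPM in NPC and 15.9 and 8.42 CPM in Phc1-KO.

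In cluster B the largest differences that passed were at Hoxb13, Hoxb7 and Hoxb2. Hoxb13 had 3 reads in NPC and 35 in Phc1-KO, a ratio of 8.98 (95% counting interval 2.83 to 45.6, edgeR adjusted p = 0.0031). Hoxb7 had 0.526 and 1.17 CPM in NPC and 4.19 and 3.72 CPM in Phc1-KO, a log2 change of 2.21 (SE 0.43, edgeR adjusted p = 0.0035). Hoxb2 went the other way, from 0.658 and 1.23 CPM in NPC to 0.262 and 0.194 CPM in Phc1-KO, a log2 change of -2.03 (SE 0.51, edgeR adjusted p = 0.011). The Hoxb2 call was lost by DESeq2 and without NPC 2, Phc1-KO 1 or Phc1-KO 2.

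Cluster D was divided by position. Hoxd8 had 18.1 and 39.9 CPM in NPC and 5.24 and 5.27 CPM in Phc1-KO, a log2 change of -2.46 (SE 0.38, edgeR adjusted p = 0.0012). Hoxd1 had 1.12 and 4.09 CPM in NPC and 0.471 and 0.435 CPM in Phc1-KO, a log2 change of -2.51 (SE 0.64, edgeR adjusted p = 0.011). Hoxd3 and Hoxd4 also fell, at -2.31 and -2.22. The Hoxd3 call held in 7 of 16 alternatives (log2 -3.06 to -0.61) and was lost by DESeq2 and limma-voom and without NPC 2, Phc1-KO 1 or Phc1-KO 2. The Hoxd1 call was lost without either Phc1-KO library, and the Hoxd4 call without Phc1-KO 1. On the 5′ side the sign was the opposite. Hoxd11 had 2 reads in NPC and 63 in Phc1-KO, a ratio of 24.2 (95% counting interval 6.44 to 205, edgeR adjusted p = 0.0028). Hoxd10 had 3 and 39 reads, a ratio of 10.01 (95% counting interval 3.18 to 50.6, edgeR adjusted p = 0.0085). Hoxd13 had 3.03 and 8.96 CPM in NPC and 16.8 and 16.6 CPM in Phc1-KO, a log2 change of 1.48 (SE 0.45, edgeR adjusted p = 0.024). The Hoxd13 call held in 14 of 17 alternatives (log2 0.90 to 2.46) and was lost without either Phc1-KO library and in the test against a 2-fold change. The Hoxd10 call held in 15 of 16 and was lost without Phc1-KO 1, and that of Hoxd11 held in 16 of 16. Hoxd9, between Hoxd8 and Hoxd10, did not pass (-1.23, adjusted p = 0.067).

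Hoxa9, Hoxa11 and Hoxc8 were lower in NPC and higher in Phc1-KO, each relative to the same ESC libraries. The 2 comparisons share those libraries, and the 3 genes were picked by these calls. A higher level in Phc1-KO than in NPC followed from that choice, so the direct test given above adds no separate support. In these 3 genes the order of the groups was NPC, ESC, Phc1-KO without overlap.

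Genes that work with or on Hox genes were counted from lists. PBX, MEIS and PKNOX proteins are the TALE homeodomain cofactors that bind DNA with Hox proteins. Of the 9 TALE genes, 6 were higher in NPC than in ESC and 0 lower, against 30.4% and 30.9% of all genes. Meis1 rose by 4.67 on the log2 scale and Pknox2 by 3.88, while Pbx2 (0.09) did not pass. Between Phc1-KO and ESC 0 of 9 passed by edgeR with adjustment, where 4.91% of all genes were higher and 5.75% lower, and Meis1 stood at 1.27 (adjusted p = 0.054). Relative to NPC, 6 of 9 were lower in Phc1-KO, Meis1 by -3.41 and Pknox2 by -4.53, against 32.7% of all genes.

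Known upstream regulators of Hox genes, 10 in number, include the caudal factors (Cdx), retinoic acid receptors and enzymes of retinoic acid turnover. In NPC 3 were higher than in ESC (Rarb, Aldh1a2 and Gdf11) and 5 lower (Cdx1, Cdx2, Cdx4, Rarg and Cyp26a1). Over all genes tested, 30.4% were higher and 30.9% lower in NPC. Cdx2 had 208 reads in the ESC pair and none in NPC, at least 65.0-fold lower. Cdx1 had 86 and 1 reads, a ratio of 0.0124 (95% counting interval 0.00031 to 0.071). In Phc1-KO Rarg was higher, and Cdx1 (-1.88), Cdx2 (-2.55) and Cyp26a1 (-3.81), which degrades retinoic acid, were lower than in ESC by edgeR with adjustment. Over all genes tested, 4.91% were higher and 5.75% lower in Phc1-KO. Cdx1 and Cdx2 are known activators of Hox genes, and a link between their levels and the Hox differences was not tested.

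Of 16 Polycomb subunit genes, 7 were higher and 6 lower in NPC than in ESC, against 30.4% and 30.9% of all genes. Phc1 fell by 3.61 and its paralog Phc2 rose by 2.16, while Cbx8 rose by 3.71. In Phc1-KO 2 were higher than in ESC, Bmi1 (2.26) and Cbx8 (1.84), and 2 lower, Phc1 (-0.63) and Ezh1 (-1.19), against 4.91% and 5.75% of all genes. Phc2 did not pass there (-0.33).

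Genes flanking the clusters were counted in the same way. Of 12 tested, 0 were higher in NPC than in ESC by edgeR with adjustment, and 6 were lower, against 30.4% and 30.9% of all genes. Skap2 fell by 0.63 and Snx10 by 1.76 beyond the 3′ end of cluster A. Evx1, a homeobox gene beyond its 5′ end, had 102 reads in ESC and none in NPC, at least 31.9-fold lower. In Phc1-KO Skap2 was higher (0.53), and Evx1 (-1.70) and Hibadh (-0.58) were lower than in ESC, against 4.91% and 5.75% of all genes. Hoxa13, the member nearest to Evx1, stood at 2.52 (SE 0.60, edgeR adjusted p = 0.043), a call that held in 6 of 16 alternatives.

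Of 16 non-coding genes within the clusters 8 could be tested. In NPC 3 were higher than in ESC (Hoxb3os, 1700109F18Rik and 6720416L17Rik) and 1 was lower (Gm16258), against 30.4% and 30.9% of all genes. The RNA 1700109F18Rik, which overlaps Hoxd3 on the opposite strand, had 1 read in ESC and 174 in NPC, a ratio of 185.6 (95% counting interval 32.9 to 7373). In Phc1-KO only Hoxa11as of the 8 was higher than in ESC, and 0 were lower, against 4.91% and 5.75% of all genes. Relative to NPC, 3 were higher and 3 lower, against 32.3% and 32.7% of all genes.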

How the data were processed

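The authors deposited 1 table of raw gene counts per library, made with STAR, HTSeq and the mm9 genome, per the submitters' processing notes. The sources used here do not give tool versions, the annotation or the strand setting. Symbols, positions and exonic lengths came from GENCODE M1 (mm9), which named 37205 of 37620 genes, and the 5 closing tallies per table were left out. All 6 libraries were fitted with edgeR 4.0.16 in R 4.3.3 (quasi-likelihood F test, 1 mean per group, TMM, filterByExpr at 10 counts and 15 in total). This left 17489 genes and 3 residual degrees of freedom. P-values were adjusted by Benjamini-Hochberg over all of them within each comparison, with a threshold of 0.05, and the SE is the log2 change divided by the square root of F. Intervals of ratios and floors (3 reads over a group) cover counting error only, since reads carry no molecular identifiers. Read depth, 15226214 to 21893821 reads in genes, gave most members fewer than 100 reads a library.

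Values per library are given for the 3 largest changes per cluster and comparison that passed without overlap, for members called in opposite directions against ESC, and for the highest member per length in each group. For some of these members with few reads in a group, reads summed over the pair are given instead. From each list the first 2 genes and the 2 largest changes that passed are given. Some results that met this rule or belong to a list are not reported here. A few members outside this rule were named after their values were seen. The members and lists were chosen with earlier results of these data known. Of 132 list genes 131 were matched, 3 by an older symbol. The code was tested on simulated data. Alternatives were DESeq2 1.42.0, limma-voom (limma 3.58.1), other scalings and filters, fits of 2 groups, a replicate block, each library left out, the ESC pair as 1 library and a test against a 2-fold change.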

Additional observations from a re-analysis of the deposited data

How the results depend on the processing

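With 2 libraries a group and few reads per gene, the counts of called members were more fragile than their directions. Relative to ESC, members higher in Phc1-KO numbered 17, but 10 by DESeq2, 4 in the test against a 2-fold change and 2 with the ESC pair counted as 1 library, and 0 to 19 with 1 library left out. None of the 17 was called in every alternative. Members lower in Phc1-KO than ESC numbered 0 in every alternative. Relative to ESC, members higher in NPC numbered 12 (8 to 12 with 1 library left out), and members lower numbered 4 (3 to 5), but 1 in a fit of only the 2 groups. Relative to NPC, members higher in Phc1-KO numbered 19 (11 to 20 with 1 library left out), but 11 with a filter at 1 CPM. Members lower numbered 5 (1 to 7), but 3 by DESeq2, with a filter at 1 CPM and in the test against a 2-fold change. Fewer members than 30 were tested with the filter at 1 CPM (19) and in the fit of only NPC and ESC (16, without Hoxa9, Hoxa11 and Hoxc8). The fit of only Phc1-KO and ESC tested 26 members, of which 19 were higher in Phc1-KO. The cause of the other changes was not tested. Of 16 members called between NPC and ESC, 10 were called in every alternative that tested them, and 11 of 24 between Phc1-KO and NPC; 4 of the 10 and 3 of the 11 were tested in 16 of the 17 alternatives.

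With the replicate number as a block the counts were 12 and 4 (NPC and ESC), 15 and 0 (Phc1-KO and ESC), and 17 and 4 (Phc1-KO and NPC). The labels do not say whether a replicate number marks a shared culture, batch or day. Replicate differences correlated between groups at 0.0153, 0.0353 and -0.025 across genes, which cannot exclude such a pairing. The 36 member results named by the rule gave 589 values under 17 alternatives, of which 493 kept their side of the threshold, 96 no longer passed and 0 reversed.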
